A study of Mus musculus with 8 samples.

Results

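Hnmt encodes histamine N-methyltransferase and is 1 gene of the 7951 for which a proximal and a distal poly(A) site within the 3′-most exon were counted. It was selected by its symbol, which occurs once in that table and is not among the 6147 genes of the companion table of upstream exons. The selection followed from earlier results on these animals, in which its site usage differed between the genotypes. Its own genotype contrast is therefore described here without a test. Total brain was taken on postnatal day 50 from 3 wild-type mice and 5 mice carrying Cstf2D50A, an exchange at residue 50 of CSTF2. All 8 animals belonged to a congenic colony on the C57BL/6NCrl background, received no treatment and were handled as 1 library per animal. The labels state neither the sex of the animals nor the number of mutant alleles, and the tissue is whole brain, so that fewer cells of a type and less RNA per cell cannot be told apart. Libraries were primed on the poly(A) tail, which places reads at transcripts' 3′ termini.

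HNMT is a cytosolic enzyme that moves a methyl group from S-adenosylmethionine to the imidazole ring of histamine. In brain this is the main route by which released histamine is inactivated, and monoamine oxidase and aldehyde dehydrogenases act on the methylated product. CSTF2 is the RNA-binding subunit of the cleavage stimulation factor, which recognises U- and GU-rich sequence downstream of a cleavage site. When a transcript has more than 1 such site in its last exon, use of the proximal site gives the shorter 3′ end and use of the distal site the longer one.

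The first table held 9616953 to 17530761 reads in wild types and 10177902 to 13449054 in mutants. Markers of excitatory neurons, interneurons, astrocytes, oligodendrocytes and microglia were detected in every library, with 0 measured members of these lists at 0 throughout. Libraries did not separate cleanly by genotype. The first principal component of log2 level over all tested genes other than Hnmt held 70.2% of the variance. On it, mutant 5 lay at -21.6, on the side of wild type 1 (-36.9) and wild type 2 (-33.7), and wild type 3 lay at 7.22, between mutant 3 (2.57) and mutant 2 (23.4). Summed cerebellar granule cell markers were at 1937 to 2781 CPM (read counts relative to the TMM-scaled library size) in wild types. They were at 489 to 599 CPM in mutants 1 to 4 and at 2152 CPM in mutant 5.

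The proximal and distal sites of Hnmt were deposited with the mm9 coordinates 23858822 and 23858431 and no chromosome. RefSeq, on the different build GRCm38.p6, places the gene on chromosome 2 on the minus strand, where a distal site has the lower coordinate. The sites are 391 bases apart, and 40.9% of all pairs in the table are closer together (median 629 bases). Whether either site precedes or follows the stop codon was not analysed here. Hnmt averaged 144 reads per library over both sites, against a median of 440 reads over all tested genes, so its shares carry wide counting intervals.

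In wild-type brain the reads of Hnmt were divided between both sites, while in the mutants nearly all lay at the distal site. Wild type 1 had 14 proximal and 30 distal reads, wild type 2 had 16 and 19, and wild type 3 had 14 and 97. Mutants 1 to 5 had 4, 5, 7, 10 and 2 proximal reads. Beside these, mutants 1, 2, 4 and 5 had 187, 254, 273 and 56 distal reads, and mutant 3 had 23.6 distal reads for each proximal read. The proximal site thus never exceeded 16 reads in any library, and the distal site spanned more than an order of magnitude.

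The distal share was 68.2% in wild type 1 (exact 95% binomial interval 52.4 to 81.4%), 54.3% in wild type 2 (36.6 to 71.2%) and 87.4% in wild type 3 (79.7 to 92.9%). In mutants 1 to 5 it was 97.9%, 98.1%, 95.9%, 96.5% and 96.6%, with intervals whose lower ends ran from 88.1% to 95.6%. These intervals cover counting error only and leave out the spread between animals. They treat each read as independent, although the reads carry no molecular identifiers. All 5 mutants lay above all 3 wild types, as did 2.53% of the 7876 tested pairs; since the gene was chosen for this contrast, nothing follows from the separation. The interval of wild type 3 overlapped those of mutant 3 (91.8 to 98.3%) and mutant 5 (88.1 to 99.6%), and it overlapped none of the other mutants'. The mean share was 69.95 ± 16.6% for wild types and 97.0 ± 0.948% for mutants (SD, n = 3 and 5), 27.0 percentage points apart.

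**Figure D1:**
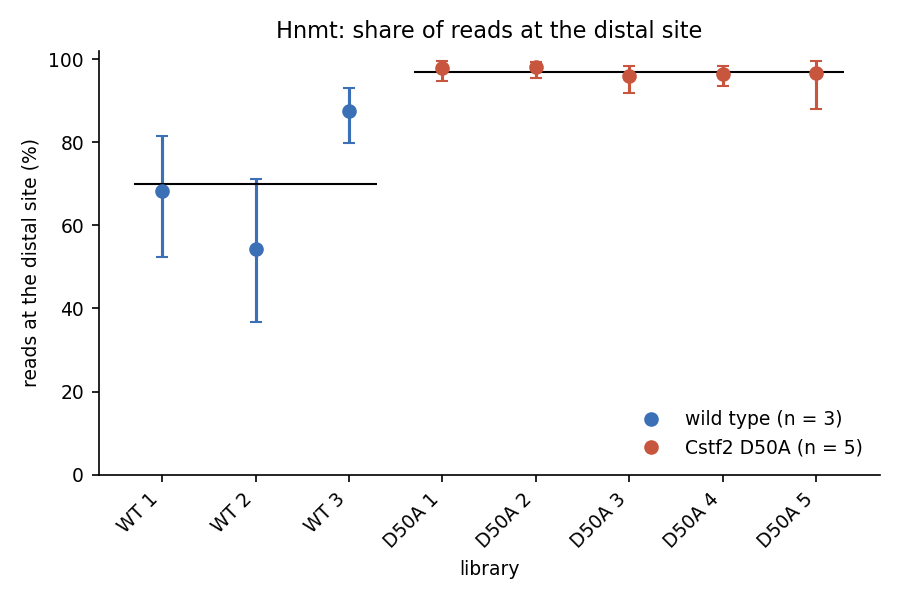
Share of Hnmt reads at the distal site in percent for each library, with exact 95% binomial intervals; horizontal lines are the genotype means (wild type n = 3, Cstf2 D50A n = 5). Wild types lie at 54.3%, 68.2% and 87.4%, and the mutants between 95.9% and 98.1%.

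The spread of the wild types was itself wide. There were 2.14, 1.19 and 6.93 distal reads for each proximal read in wild types 1, 2 and 3, and from 23.6 to 50.8 in mutants. The SD of the log2 ratio of distal to proximal reads (0.5 added to each count) was 1.28 over the wild types, larger than in 95.8% of all tested pairs. Among the 1103 pairs with an average of 100 to 200 reads, 94.7% had a smaller wild-type SD. The SD over the mutants was 0.50, larger than in 57.6% of pairs, and thus near the middle. Wild type 3 supplied 111 of the 190 wild-type reads, so that the share over summed reads was 76.8% in wild type (146 of 190) and 97.1% in mutants (935 of 963).

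Both sites contributed to the difference in share, in opposite directions. The proximal site stood at 1.57, 0.956 and 1.15 CPM in wild types 1 to 3. It stood at 0.377, 0.402, 0.557, 0.711 and 0.179 CPM in mutants 1 to 5. Every mutant value lay below every wild-type value, as in 3.05% of tested pairs. The means were 1.22 ± 0.312 CPM and 0.445 ± 0.200 CPM (SD, n = 3 and 5), 2.75 times as high in wild type. With 2 to 16 reads per library the exact Poisson intervals were broad: 0.546 to 1.55 CPM in wild type 2, the lowest wild type, against 0.341 to 1.31 CPM in mutant 4, the highest mutant. Only 0.635% of tested pairs had both a higher distal share and a lower proximal level without overlap of the genotypes; both measures come from the contrast by which the gene was chosen.

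The distal site stood at 3.35, 1.14 and 7.94 CPM in wild types 1 to 3. In mutants 1 to 5 it stood at 17.6, 20.4, 13.1, 19.4 and 5.02 CPM. Here the genotypes overlapped, because mutant 5 lay below wild type 3 with intervals of 3.79 to 6.52 and 6.44 to 9.69 CPM. The other 4 mutants lay above all wild types. The mean level was 4.14 ± 3.47 CPM for wild types and 15.1 ± 6.30 CPM for mutants (SD, n = 3 and 5), a ratio of 3.65. The difference of mean log2 CPM was 2.12 and, without wild type 2, 1.40.

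**Figure D2:**
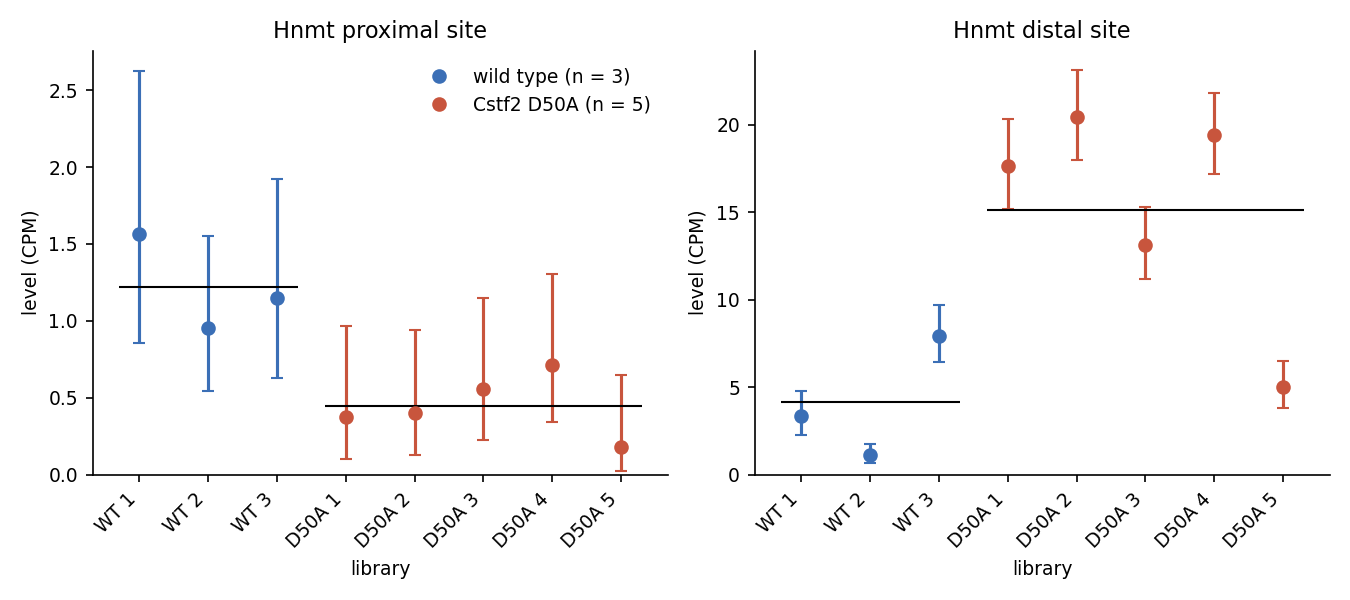
Level of Hnmt at the proximal site (left) and the distal site (right) in CPM per library, with exact 95% Poisson intervals for the counts; horizontal lines are genotype means (wild type n = 3, Cstf2 D50A n = 5) and the vertical scales differ. Proximal levels lie at 0.956 CPM and above in wild types and at 0.711 CPM and below in mutants, whereas distal levels overlap through mutant 5 at 5.02 CPM and wild type 3 at 7.94 CPM.

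Since the distal site held most reads, the level of both sites together followed it. It was 4.92, 2.09 and 9.09 CPM in wild types 1 to 3 and 18.0, 20.8, 13.7, 20.1 and 5.20 CPM in mutants 1 to 5. In descending order the libraries ran mutant 2, mutant 4, mutant 1, mutant 3, wild type 3, mutant 5, wild type 1 and wild type 2. Mutant 2 and mutant 4 differed by less than the SD of the mutants, as did mutant 5 and wild type 1. Means were 5.37 ± 3.52 CPM and 15.6 ± 6.43 CPM (SD, n = 3 and 5), and the genotypes overlapped; the difference of mean log2 CPM was 1.63, and 1.07 without wild type 2. The highest library exceeded the lowest 4.35 times within the wild types and 4.01 times within the mutants. On the scale of log2(CPM + 0.5) the SD was 0.95 in wild types and 0.79 in mutants, larger than for 98.3% and 98.1% of tested genes, whose medians were 0.28 and 0.20.

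By level and by distal share of Hnmt the wild types fell in the same order, and mutant 2 was highest in both. Mutant 5 was the animal whose place differed most. Mutant 5 had a level of 5.20 CPM, next to wild type 1 at 4.92 CPM, but a distal share of 96.6%, within the range of the other mutants. Wild type 3 had the highest wild-type level and also the highest wild-type distal share. For a total near that of mutant 5 (58 reads, 2 proximal), wild type 1 had 44 reads, of which 14 were proximal.

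The summed levels of several marker lists moved with the level of Hnmt across libraries. The part of these lists in the level and in the distal share was not tested. Endothelial and pericyte markers, of which 4 of 13 were measured within the 3′-most exon (Flt1, Tek, Slco1a4 and Rgs5, 0 of them at 0), summed to 260 to 452 CPM in wild types and 296 to 622 CPM in mutants. The lowest sums were in wild type 2 (260 CPM), wild type 1 (274 CPM) and mutant 5 (296 CPM), which were also the libraries with the least Hnmt. Between mutants and wild types, the log2 changes in level of the 4 members ran from 0.05 in Slco1a4 to 0.70 in Flt1. This sum too did not stand for each member. Mean Rgs5 was at 184 CPM in wild types and 297 CPM in mutants, and mean Slco1a4 at 87.1 and 90.3 CPM. Counted against an upstream exon, the changes in level were 0.68 in Flt1, 0.08 in Ly6c1, 0.07 in Cdh5 and 0.02 in Slco1a4. Striatal markers (8 of 10 measured) were at 724 to 836 CPM in mutants 1 to 4, where Hnmt was highest, at 560 CPM in mutant 5 and at 533 to 674 CPM in wild types. The striatal sum did not stand for each member, since only 5 of the 8 had a log2 change in level above 0. Mean Penk was at 144 CPM in wild types and 249 CPM in mutants, and mean Drd1 at 105 and 96.1 CPM. Other lists ran the other way, with mutants 1 to 4 below the remaining libraries. Cerebellar granule cell markers (9 of 13 measured) did so with the sums given above. Astrocyte markers (8 of 14) were at 7231 to 7476 CPM in mutants 1 to 4, at 8629 CPM in mutant 5 and at 7859 to 10041 CPM in wild types. Interneuron markers (8 of 9) were at 1864 to 1947 CPM, 2239 CPM and 2063 to 2312 CPM in the same order. A log2 change in level above 0 was found for 0 of 9 cerebellar, 3 of 8 astrocyte and 7 of 8 interneuron members. The interneuron member below 0 was Pvalb, with means of 746 CPM in wild types and 278 CPM in mutants. In these lists 0 measured members were at 0 throughout. In all 4 of the striatal, cerebellar, astrocyte and interneuron lists mutant 5 thus lay with the wild types, while its distal share of Hnmt was 96.6%. Microglia markers, 4 of 10 measured, stood at 231 to 299 CPM in wild types and 241 to 280 CPM in mutants. Of 8 mast cell markers only Hpgds was measured within the exon, at 4.36 to 6.06 CPM and 5.01 to 8.11 CPM, and of 6 histaminergic neuron markers 0 were listed in either table.

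**Figure D3:**
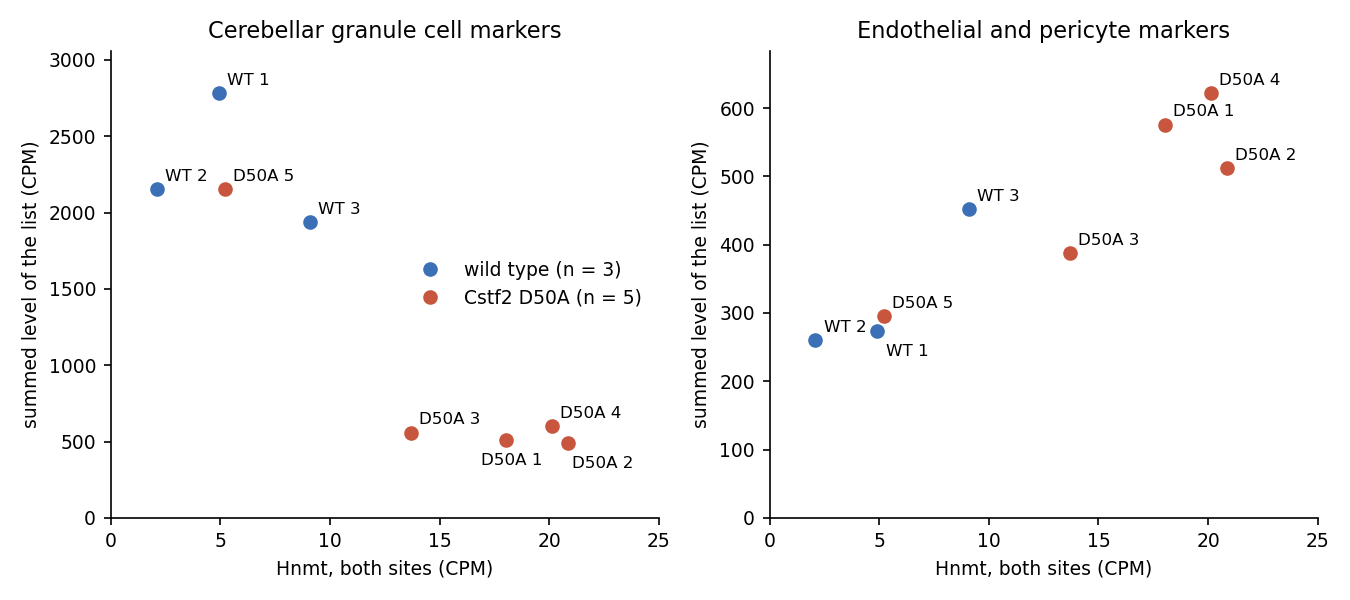
Level of Hnmt over both sites (x axis, CPM) against the summed level of cerebellar granule cell markers (left, y axis, CPM) and endothelial and pericyte markers (right, y axis, CPM), 1 point per library. Mutant 5 lies among the wild types in both panels, with 2152 CPM of cerebellar and 296 CPM of endothelial markers.

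The remaining histamine genes were tested for the same contrast, as a list drawn up with earlier results of these animals known. Among 17 genes of histamine synthesis, transport, reception and degradation beside Hnmt, 6 were tested within the 3′-most exon. These 6 were receptors and degrading enzymes, and no gene of histamine synthesis was tested in either table. edgeR's quasi-likelihood test called 0 of the 6 in site usage and 0 in level after Benjamini-Hochberg adjustment, and 0 of them reached an unadjusted p under 0.05 in either measure. DESeq2 also called 0. Over all 7876 pairs edgeR's adjusted calls came to 0% in either measure, and an unadjusted p under 0.05 was reached by 12.9% in usage and 14.3% in level. DESeq2 called 0.267% in usage and 0.33% in level. The median log2 change of the 6 genes was -0.01 in usage (all pairs, 0.12) and -0.05 in level (all genes, 0.01).

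The receptors did not pass the test. Hrh1, the receptor coupled to Gq, had a distal share of 96.9 ± 1.39% for wild types and 96.2 ± 1.69% for mutants (SD, n = 3 and 5; log2 change -0.18, SE 0.418, edgeR adjusted p = 0.856). Hrh3, the presynaptic autoreceptor that limits histamine release, had 63.1 ± 3.68% and 62.2 ± 0.822% (log2 change -0.06, SE 0.160, edgeR adjusted p = 0.872). Its level was 193 ± 77.9 CPM for wild types and 260 ± 23.4 CPM for mutants (log2 change 0.43, SE 0.247, edgeR adjusted p = 0.371). Within the wild types it ranged from 103 to 238 CPM, so the difference was within their spread. Hrh2, the receptor coupled to Gs, was counted only against an upstream exon, and its 3′-most exon held 89.3 ± 4.94% and 91.0 ± 4.06% of reads (log2 change 0.20, SE 0.480, edgeR adjusted p = 0.879).

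Transporters that can carry histamine into cells were counted in the upstream exon table. The 3′-most exon held 94.4 ± 2.00% of the reads of Slc22a3 for wild types and 95.8 ± 2.93% for mutants, and 95.8 ± 1.21% and 95.3 ± 1.61% of those of Slc29a4 (SD, n = 3 and 5; edgeR adjusted p = 0.852 and 0.867). The level of Slc29a4 was 27.1 ± 6.25 CPM and 23.4 ± 8.17 CPM, scaled within that table (log2 change -0.22, SE 0.263, edgeR adjusted p = 0.637). Neither gene differed beyond the spread of the animals.

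The tested enzymes downstream of HNMT showed no called change, and Maoa was the only monoamine oxidase among them. Maoa, a mitochondrial monoamine oxidase, had 67.3 ± 7.71% and 67.0 ± 3.80% of reads at the distal site (SD, n = 3 and 5; log2 change -0.02, SE 0.288, edgeR adjusted p = 0.977). Aldh2, the mitochondrial aldehyde dehydrogenase, ended mostly at the proximal site, with 4.13 ± 0.321% and 4.59 ± 0.386% distal reads (log2 change 0.16, SE 0.161, edgeR adjusted p = 0.623). Aldh9a1, had close means of 64.5 ± 2.39% and 64.5 ± 4.48%. Aldh7a1 had a share that spread widely over the mutants, at 8.47 ± 1.78% for wild types and 18.0 ± 10.3% for mutants (log2 change 1.09, SE 0.606, edgeR adjusted p = 0.429). Single mutants ran from 5.07% to 29.0% and enclosed all wild types. In the upstream exon table, 7 histamine genes were tested. In usage edgeR and DESeq2 called 0 of the 7 (0% and 0.0833% of all 6001 pairs), and 0 reached an unadjusted p under 0.05 in edgeR (14% of all pairs). There Aldh3a2, a microsomal aldehyde dehydrogenase, ended mainly in the upstream exon, with 12.8 ± 1.20% and 10.2 ± 3.22% of reads in the 3′-most exon (log2 change -0.40, SE 0.347, edgeR adjusted p = 0.601).

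**Figure D4:**
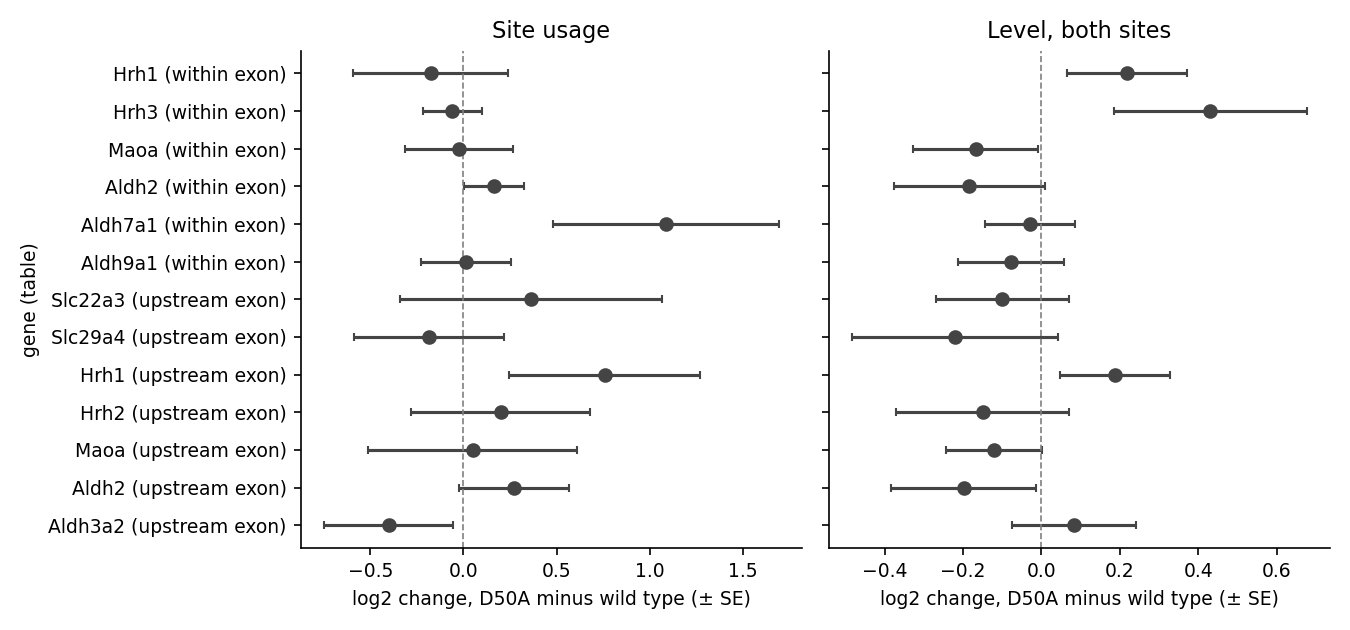
log2 change between mutants and wild types with its SE (edgeR, 5 against 3 animals) in site usage (left, positive toward the distal site or the 3′-most exon) and in the level of both sites (right) for the tested histamine genes other than Hnmt, by table. The values of usage run from -0.40 for Aldh3a2 to 1.09 for Aldh7a1, and edgeR called none of them (smallest adjusted p = 0.429 in usage and 0.371 in level).

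HNMT consumes S-adenosylmethionine, so the enzymes that make and recycle this methyl donor and other small-molecule methyltransferases were counted too, together with genes of the other amine transmitters. With the histamine genes these 4 lists held 29 tested genes within the 3′-most exon. edgeR called 0 of 29 in usage, while 3 genes with higher and 1 with lower distal use had an unadjusted p under 0.05 (13.8%, against 12.9% of all pairs), and DESeq2 called 0. In level it also called 0 of 29, while 1 higher and 2 lower genes had an unadjusted p under 0.05 (10.3%, against 14.3%). Against an upstream exon edgeR called 0 of 22 in usage, while 2 genes, both toward the 3′-most exon, had an unadjusted p under 0.05 (9.09%, against 14%). In the level of that table it called 0 of 22, while 1 higher and 1 lower gene had an unadjusted p under 0.05 (15.1% of all genes). DESeq2 called 0 in both (0% of all genes in level). The counts at an unadjusted p under 0.05 hung on single libraries, and so did those over all pairs. In usage within the exon the 4 of 29 became 8 without wild type 3 (24.4% of all pairs) and 11 without mutant 5 (27.7%). They became 1 without wild type 1 or without mutant 2 (5.33% and 6.73%) and 0 without wild type 2 or without mutant 1 (3.80% and 6.80%). In level within the exon the 3 of 29 became 9 without wild type 3 (32.9%) and 8 without mutant 5 (28.9%).

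Coq3, a methyltransferase of ubiquinone synthesis, had a distal share of 86.8 ± 2.52% for wild types and 80.6 ± 3.61% for mutants (SD, n = 3 and 5; log2 change -0.66, SE 0.253, edgeR adjusted p = 0.38).

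In the methyl donor cycle, 10 genes were tested within the exon and 7 had a log2 change in usage above 0, as did 59.2% of all pairs. The remaining genes ran from -0.54 to -0.21. The median was 0.60 beside 0.12 over all pairs, and a shift of the list as a whole was not tested. Mat2a, which makes S-adenosylmethionine outside the liver, had 60.1 ± 8.18% and 67.6 ± 6.18% distal reads (SD, n = 3 and 5; log2 change 0.47, SE 0.282, edgeR adjusted p = 0.443). Ahcyl2, a relative of the hydrolase that clears the spent donor, had 78.5 ± 7.54% and 87.1 ± 3.28% (log2 change 0.85, SE 0.362, edgeR adjusted p = 0.38). Slc25a26, which carries S-adenosylmethionine into mitochondria, had 27.9 ± 10.4% and 49.4 ± 19.1% (log2 change 1.44, SE 0.644, edgeR adjusted p = 0.384). In level, Mat2a stood at 276 ± 12.6 CPM and 245 ± 10.4 CPM (log2 change -0.17, SE 0.102, edgeR adjusted p = 0.387). Outside this cycle, in the list of other amine transmitters, Qdpr regenerates the tetrahydrobiopterin used in monoamine synthesis. Qdpr stood at 746 ± 236 CPM and 537 ± 34.7 CPM in level (log2 change -0.47, SE 0.179, edgeR adjusted p = 0.343).

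Of the 10 protein-coding genes nearest to Hnmt in the RefSeq order, 5 on each side, 2 were listed within the exon and 0 against an upstream exon. Spopl, the next gene on the side of lower coordinates, had a distal share of 43.7 ± 2.06% for wild types and 47.3 ± 5.65% for mutants (SD, n = 3 and 5; log2 change 0.21, SE 0.257, edgeR adjusted p = 0.695). Its level was 16.6 ± 5.63 CPM and 14.6 ± 1.15 CPM (log2 change -0.17, SE 0.199, edgeR adjusted p = 0.624). Yme1l1, a mitochondrial protease, stood at 53.7 ± 2.81% and 56.4 ± 5.26% distal reads (log2 change 0.16, SE 0.256, edgeR adjusted p = 0.77). edgeR and DESeq2 called 0 of these genes, and 0 reached an unadjusted p under 0.05 in edgeR.

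Likeness to Hnmt was measured by correlation. Over the 8 libraries and 7376 other pairs with an average of 50 or more reads, the log2 ratio of distal to proximal reads was most like that of Hnmt in Tmod3, Medag and Ugt8a (Pearson r of 0.970, 0.969 and 0.969). Tmod3, a cap of actin filaments, had 38.1 to 57.1% distal reads in wild types and 66.7 to 74.5% in mutants. Ugt8a, which makes the galactolipids of myelin, had 1.01 to 2.11% and 3.61 to 8.18%. In all, 88 pairs (1.19%) had an r above 0.9 and 41 (0.556%) an r below -0.9. The points share the libraries and the genotype groups, so these values describe likeness and carry no test.

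In level, likeness to Hnmt was common. An r above 0.9 was found for 602 of the 7376 genes (8.16%), and an r below -0.9 for 257 (3.48%). Tbpl1, a relative of the TATA-binding protein, was the most alike (r = 0.997), at 60.8, 36.8 and 96.5 CPM in wild types 1 to 3 and 159, 164, 115, 153 and 64.6 CPM in mutants 1 to 5. Mrpl27, of the large subunit of the mitochondrial ribosome, and Tmem189, an enzyme of plasmalogen synthesis, followed (r = 0.992 for each). Mrpl27 stood at 11.2, 5.68 and 22.6 CPM in wild types and at 46.1, 42.9, 28.8, 51.8 and 14.1 CPM in mutants 1 to 5. Mutant 5 lay between wild types 1 and 3 in all of these genes, as it did in Hnmt.

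**Figure D5:**
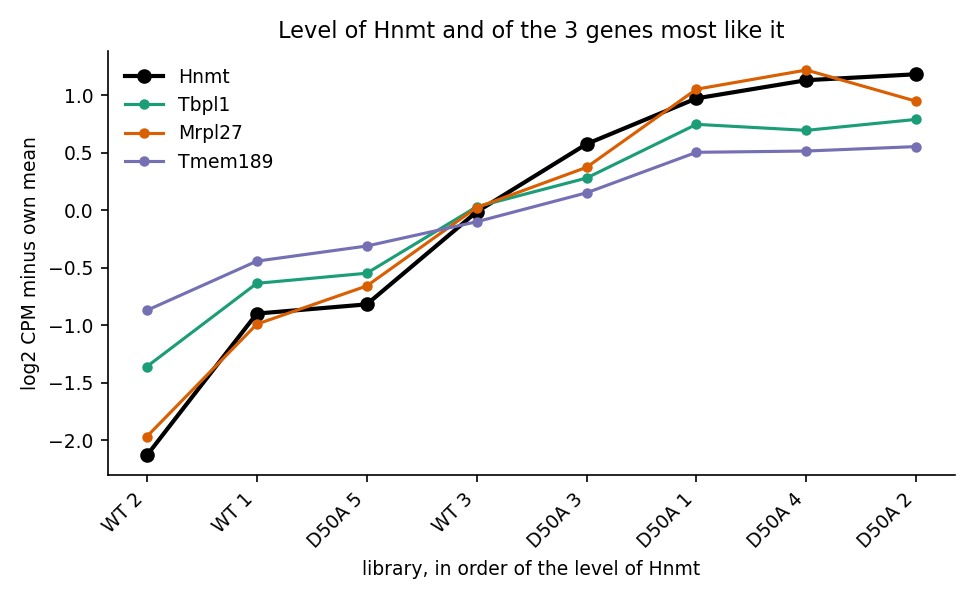
log2 CPM of both sites minus each gene's own mean over the 8 libraries (y axis) for Hnmt and the 3 genes with the highest Pearson correlation to it, with libraries ordered by the level of Hnmt (x axis). Each gene is lowest in wild type 2, and mutant 5 lies between wild type 1 and wild type 3 in each.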

How the data were processed

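Counts were used as the authors deposited them: raw read counts per site and library, as whole numbers, in 2 tables, per the file headers. The positions beside them are the authors' own. STAR 2.5, HTSeq 0.6.0, FastQC 0.11.3 and mm9 are named in the submitters' processing notes. The choice of sites, any filter on internal priming and the use of strand are not given in the sources used here. Reads of overlapping genes cannot be separated. Value columns were matched to animals by library code, and 0 stayed unmatched. Replicates were numbered in record order; the labels describe separate animals and name no batch.

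Pairs with 20 or more reads per library on average and 10 or more reads at each site in all were tested (7876 and 6001). Usage was fitted with edgeR 4.0.16 (quasi-likelihood F test) by the site-by-genotype term of a model with a block per library; level was fitted on summed sites with TMM scaling. SEs were the log2 change divided by the root of F. The p-values were Benjamini-Hochberg adjusted over each table at 0.05. DESeq2 1.42.0 was an alternative; R was 4.3.3. Scripts were tested on simulated counts. Of the symbols, 97.8% matched RefSeq.

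Alternatives were other scaling, no filter, another pseudocount (1 in place of 0.5), summed reads and leaving out each library. The gene and the gene lists were chosen with earlier results of these data known. Named were Hnmt, all tested histamine genes, up to 4 further genes per list, tested neighbours, and the 3 pairs and 3 genes most like Hnmt. 1 gene that this rule names is not reported here. A planned share against an upstream exon could not be computed for Hnmt, which that table does not list here.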

Additional observations from a re-analysis of the deposited data

Results flagged for a closer look

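In 39 sets of 5 mutant values, 6 had 1 animal far from the rest (a gap to the nearest animal above 0.71 of the range); chance alone flags about 1 in 20 such sets. Mutant 5 accounted for 4 of the 6. It had the highest summed markers of cerebellar granule cells (2152 CPM), astrocytes (8629 CPM) and interneurons (2239 CPM), and the lowest distal share of Aldh9a1 (56.9%). Mutant 1 had the lowest level of Maoa (12.9 CPM), and mutant 3 the highest summed meningeal and fibroblast markers (133 CPM). No value of Hnmt in the mutants was set apart in this way.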

How the results depend on the processing

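No paired analysis was possible because the labels give the animals no shared numbers, litters or batches. The difference in the distal share of Hnmt (27.0 percentage points, mutants above wild types) lay between 19.2 and 35.8 when each library was left out in turn and was 20.2 over summed reads. The difference of mean log2 CPM ran from -1.77 to -1.27 for the proximal site, from 1.40 to 2.80 for the distal site and from 1.07 to 2.13 for both, and moved little with other scaling (-1.50 to -1.57, 2.12 to 2.19, and 1.62 to 1.69). The log2 ratio of distal to proximal reads differed by 3.56, by 3.45 with a pseudocount of 1, and by 3.005 to 4.26 without single libraries. Every one of these kept its direction and moved by less than 1 SD between animals. Calls among the histamine, methyl group and neighbouring genes stayed at 0 under each alternative run. Counts over all genes did not: without mutant 5, edgeR's adjusted calls came to 236 in upstream exon usage, 65 in level in that table and 68 in level within the exon, and without wild type 3 to 161 in upstream exon usage and 1 in usage within the exon, against 0 with all libraries. Against an upstream exon, the 2 of 22 listed genes with an unadjusted p under 0.05 in usage became 4 without wild type 3 or mutant 5 and 1 without wild type 1, wild type 2 or mutant 2; the 2 in level became 6 without wild type 3 or mutant 5. Depth limits the proximal site most, with 2 to 16 reads per library.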
